A study of Mus musculus with 9 samples.

Results

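The 9 chemokine receptor genes Ccr9, Cxcr6, Ccr2, Ccr4, Ccr6, Ccr8, Cxcr3, Cxcr4 and Cxcr5 were followed through every probe set that carries their symbol, which gave 14 of the 22626 probe sets tested and 9 of the 12393 genes with a symbol. They were read in mouse regulatory T cells (Tregs), the CD4 T cells that restrain other immune cells, taken from C57BL6 animals by magnetic separation for CD4 and CD25 and measured on 1 Affymetrix array a sample from 100 ng of total RNA. There were 3 groups of 3 arrays: Foxp3-cre, a conditional knockout of Sirt1 by Cre recombinase from a Foxp3 driver; CD4-cre, the same with a CD4 driver; and wild type. Sirt1 encodes an NAD-dependent deacetylase, and the title of the series puts the question as how targeting it bears on Treg function. Foxp3 is the gene of the lineage factor of Tregs and CD4 is active in T cells from the thymus on, so the deletions differ in the cells and the stage at which they occur. The wild type group is not described as carrying a Cre or a marked Sirt1 allele, and the sources used here do not say which part of Sirt1 the Cre takes out. The 3 samples of a group are called independent in the series' design text, without a statement on whether each came from its own animal, so a p-value here reflects sample-to-sample spread that can be technical.

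Chemokine receptors are G protein-coupled receptors that steer leukocytes along gradients of secreted chemokines. On binding their ligand they act through inhibitory G proteins, phosphoinositide 3-kinase gamma and Rac to turn the cell towards the source, and receptor kinases, arrestins and RGS proteins then switch the signal off. T cells exchange these receptors as they mature and become activated, and the set a cell carries decides which tissues it can enter: CCR9 serves the thymus and the small intestine, CXCR6 the liver and other peripheral tissues, CCR4 and CCR8 the skin and sites of inflammation, CCR6 mucosal surfaces, CXCR3 and CCR2 inflamed tissue, CXCR5 the B cell follicle and CXCR4 the bone marrow and lymphoid organs.

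All values are log2 signals (1 unit is a 2-fold step), and a level of one probe set is not set against that of another. Probe sets are given by their array identifiers, and a difference was called at an adjusted p below 0.05 in limma over all 22626 probe sets. An unadjusted p below 0.05 was reached by 13.7% of all probe sets in Foxp3-cre and 10.5% in CD4-cre against wild type. Wild type replicate 2 stood apart: it correlated with the other arrays at 0.982 to 0.987, and its 5′ minus 3′ signal was -1.53 for Actb, against -0.68 to -0.45 on the other 8 arrays. Results that rest on it are given with and without it. The Sirt1 probe set read 7.66, 7.54 and 7.47 in Foxp3-cre, 7.69, 7.59 and 7.59 in CD4-cre, and 7.91, 6.77 and 7.90 in wild type (differences from wild type of 0.03 and 0.10, adjusted p = 0.969 and 0.912 in limma). Without wild type replicate 2 all 6 knockout arrays lay below wild type and the differences were -0.35 and -0.28, which did not pass either (adjusted p = 0.0665 and 0.134); a probe set outside the deleted part would check nothing. The Foxp3 probe set read 2.67, 3.38 and 2.83 in Foxp3-cre, 9.68, 9.69 and 9.62 in CD4-cre, and 9.16, 9.68 and 9.34 in wild type. On each Foxp3-cre array it lay below the average of 17 genes of non-lymphoid tissues, 3.37 to 3.45 there, and where its probes lie relative to the Foxp3-cre allele is not given in these sources. The 7 T cell markers with a probe set, Cd3e and Cd4 among them, averaged 10.64 to 10.70 in Foxp3-cre, 10.67 to 10.73 in CD4-cre and 10.72 to 10.77 in wild type.

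Cxcr6 and Ccr9 were the receptors with the largest differences of Foxp3-cre from wild type, and both genes lie on mouse chromosome 9, separated by a single protein-coding gene. The 250 bases before their RefSeq starts (GRCm38.p6, plus strand) are shown because these 2 receptors passed as lower on their brightest probe sets. That of Cxcr6 covers chr9:123806227-123806476 and that of Ccr9 covers chr9:123766961-123767210. Capitals mark matches to letters that factor families of T cells recognise, searched on both strands: GTGTGA for T-box factors such as T-bet, TGTGGT for RUNX factors, and CANNTG for E-box factors.
Cxcr6: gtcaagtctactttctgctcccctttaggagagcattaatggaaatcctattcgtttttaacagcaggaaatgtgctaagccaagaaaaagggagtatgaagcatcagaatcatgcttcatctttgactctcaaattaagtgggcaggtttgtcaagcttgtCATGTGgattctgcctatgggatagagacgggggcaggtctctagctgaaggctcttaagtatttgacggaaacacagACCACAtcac
Ccr9: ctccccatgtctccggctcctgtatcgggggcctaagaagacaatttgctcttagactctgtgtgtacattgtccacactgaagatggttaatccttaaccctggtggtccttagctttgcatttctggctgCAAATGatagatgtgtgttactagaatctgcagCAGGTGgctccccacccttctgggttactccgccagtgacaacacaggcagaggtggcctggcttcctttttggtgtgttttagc
The Cxcr6 window held CATGTG, an E-box word whose first base lies 88 bases before the start, and ACCACA, the RUNX letters on the minus strand, 10 bases before it. In the Ccr9 window there were the E-box words CAAATG and CAGGTG, 118 and 85 bases before the start. No match overlapped another, and neither window held the T-box letters. Of 32851 promoter windows of the same length, 12.3% held the T-box letters, 14.0% the RUNX letters and 66.2% an E-box. These matches describe the letters and no binding was measured.

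Foxp3-cre Tregs were compared with wild type to ask which receptors differed when Sirt1 was targeted in Foxp3-expressing cells. By their brightest probe sets, Cxcr6 had a 2.71-fold and Ccr9 a 2.04-fold lower signal in Foxp3-cre, and the other 7 receptors did not pass. None of the 14 probe sets passed as higher, where 0.508% of all probe sets did. Of the 14 probe sets, 4 passed as lower (Cxcr6, 2 of Ccr9 and a dim one of Ccr2), where 1.11% of all probe sets passed in either direction and 0.605% as lower. With the replicate number as a block the same 4 passed, where 1.92% of all probe sets did. The median difference of the 14 was -0.47, beside -0.02 for all probe sets, but Ccr9, Ccr2 and Cxcr6 enter it with several sets each. By the brightest set of each of the 9 genes the median was -0.17, with 2 genes above 0 and 7 below.

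Cxcr6 encodes the receptor of CXCL16, a chemokine made as a membrane-bound protein, and marks activated and tissue-dwelling T cells and innate-like T cells. Its brighter probe set, 1422812_at, read 7.87, 7.97 and 8.05 in Foxp3-cre, 8.85, 8.67 and 8.56 in CD4-cre, and 9.70, 9.18 and 9.32 in wild type. All 3 Foxp3-cre arrays lay below all CD4-cre arrays, and these below all wild type arrays. The group means were 7.96 ± 0.09 in Foxp3-cre, 8.69 ± 0.15 in CD4-cre and 9.40 ± 0.27 in wild type (SD, n = 3 arrays each). Foxp3-cre differed from wild type by -1.44 (SE 0.14, limma adjusted p = 0.00183), a 2.71-fold lower signal, and this call held in all 9 fits that leave out an array, with adjusted p from 0.00213 to 0.0145. The other probe set, 1425832_a_at, gave the same order of means but a wider wild type group, at 7.74, 7.76 and 8.11 in Foxp3-cre, 8.74, 8.46 and 8.47 in CD4-cre, and 9.72, 8.26 and 9.28 in wild type. Its difference of -1.22 (SE 0.30) did not pass (adjusted p = 0.0952 in limma), while without wild type replicate 2 it was -1.63 (adjusted p = 0.00365). In bulk RNA, fewer cells that express a gene and less of its RNA per cell cannot be told apart.

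**Figure D1:**
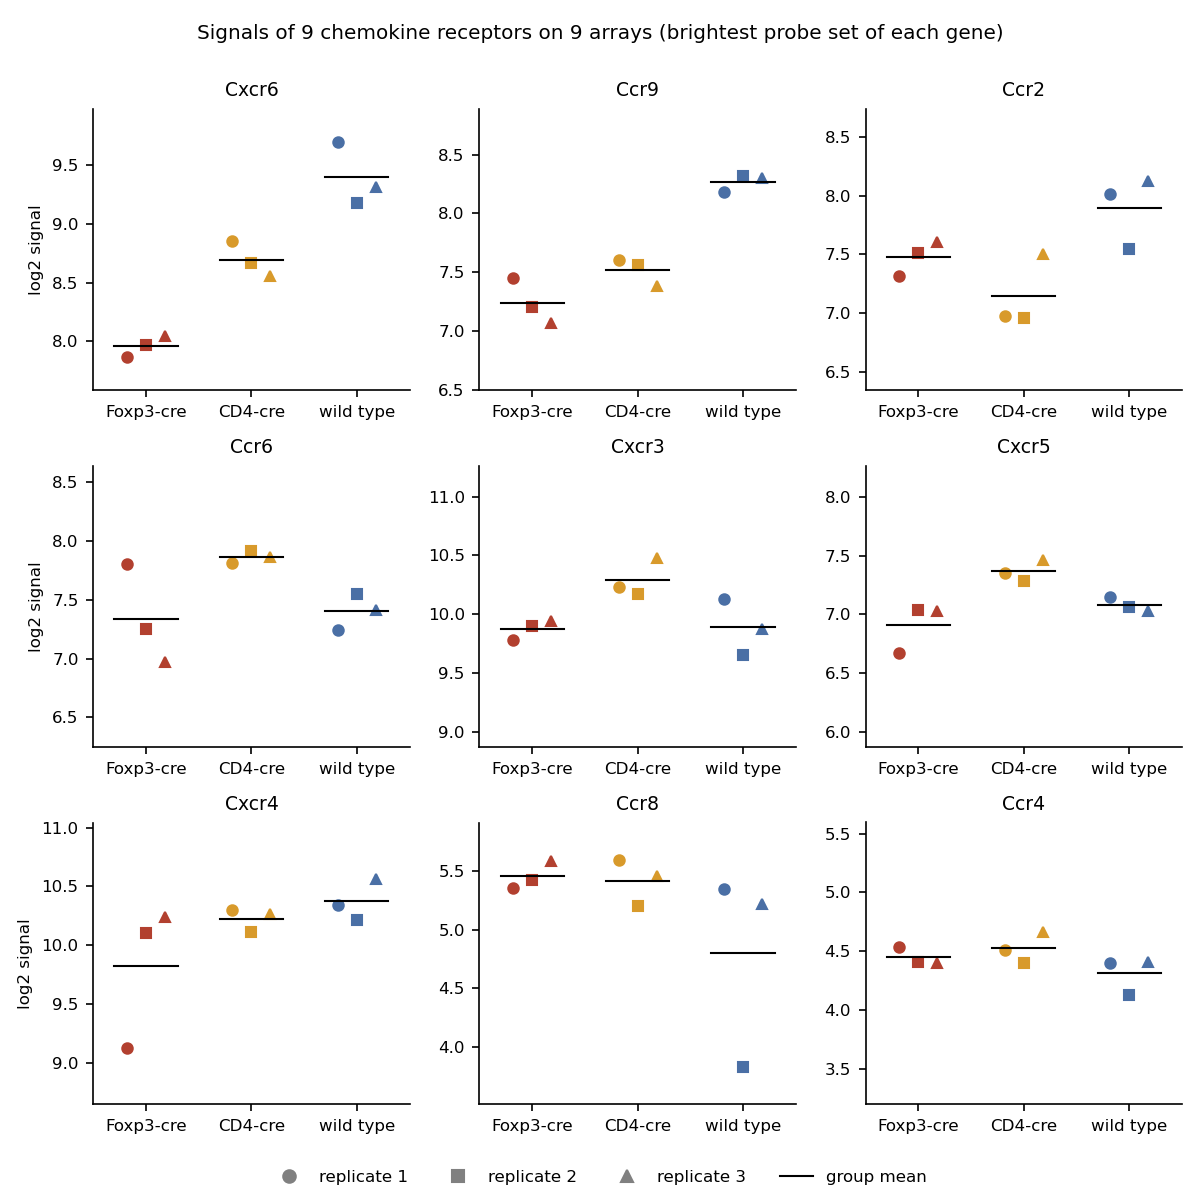
Log2 signal of the brightest probe set of each receptor on the 9 arrays, with Foxp3-cre, CD4-cre and wild type from left to right, symbols for replicates, and black lines for group means; every vertical axis spans the same number of log2 units, so distances compare between panels. The Cxcr6 groups do not overlap, at 7.87 to 8.05 in Foxp3-cre, 8.56 to 8.85 in CD4-cre and 9.18 to 9.70 in wild type, and both knockouts lie below wild type for Ccr9.

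Ccr9 encodes the receptor of CCL25, the chemokine of thymic and small intestinal epithelium, and is read as a gut-homing receptor on peripheral T cells. On 1427419_x_at, its brightest probe set, signals were 7.45, 7.20 and 7.07 in Foxp3-cre, 7.61, 7.56 and 7.38 in CD4-cre, and 8.18, 8.32 and 8.30 in wild type. The Foxp3-cre and CD4-cre arrays overlapped, and all 6 lay below wild type. Means were 7.24 ± 0.19 in Foxp3-cre, 7.52 ± 0.12 in CD4-cre and 8.27 ± 0.08 in wild type (SD, n = 3 arrays each). The difference between Foxp3-cre and wild type was -1.03 (SE 0.11, limma adjusted p = 0.00437), a 2.04-fold lower signal. The suffix of this identifier marks a set in which some probes can match other transcripts, so the remaining sets bear on it. Probe set 1421920_a_at read 6.24, 5.99 and 6.12 in Foxp3-cre, 6.48, 6.42 and 6.43 in CD4-cre, and 7.15, 6.83 and 7.03 in wild type, a difference of -0.89 in Foxp3-cre (SE 0.10, adjusted p = 0.00670). These 2 calls held in all 9 fits that leave out an array. The dim set 1421919_a_at had its wild type values spread over 5.60, 4.27 and 5.48, with 4.58, 4.09 and 4.60 in Foxp3-cre. Its difference was -0.69 (adjusted p = 0.349 in limma) with all arrays and -1.11 (adjusted p = 0.0104) without wild type replicate 2, so all 3 sets had lower means. The single arrays of this dim set lay at percentiles 34.6 to 52.1. Averaged over the 9 arrays, the highest of 17 genes of non-lymphoid tissues lay at 46.8 and their median at 21.4. Whether Ccr9 was detected by it on the lower arrays cannot be told, so it adds little to the other 2 sets.

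**Figure D2:**
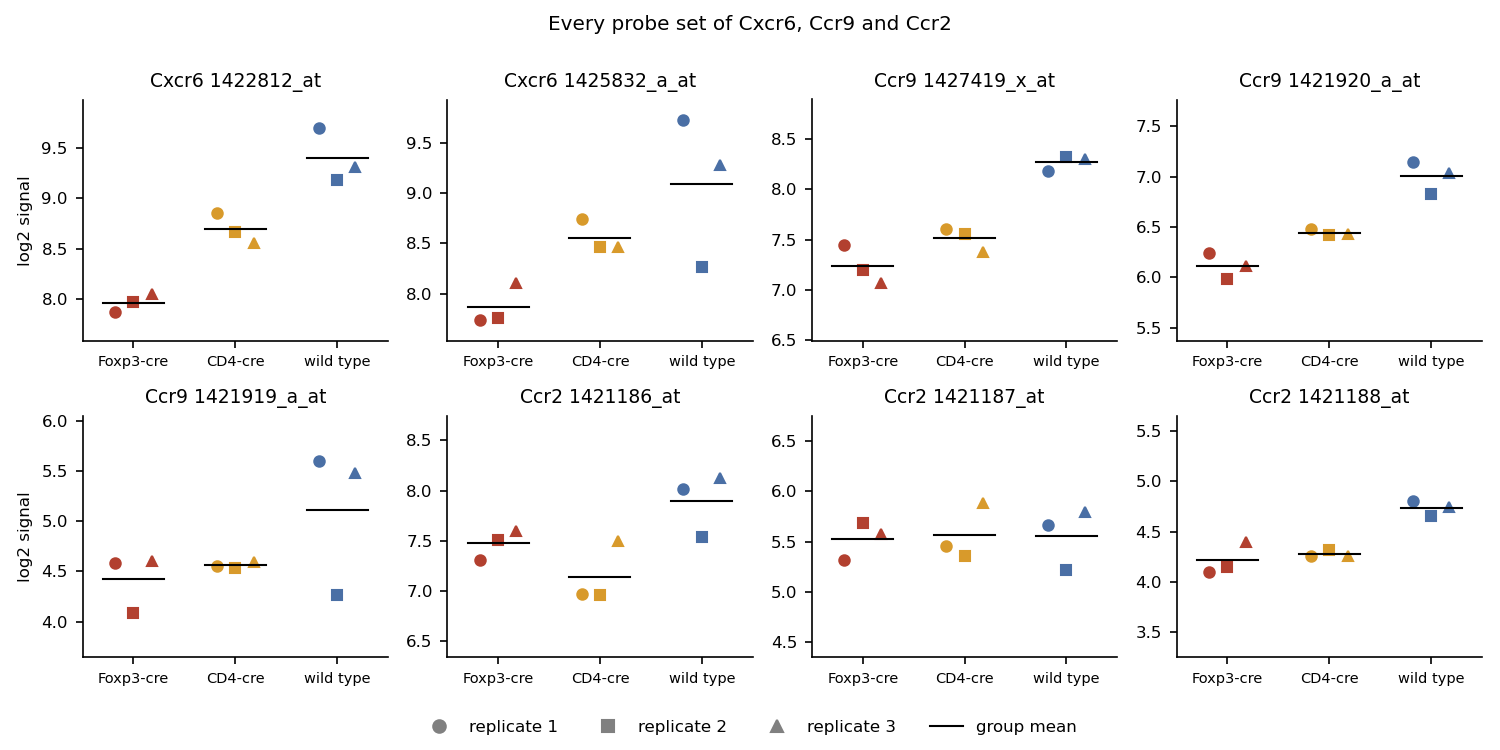
Log2 signals of every probe set of Cxcr6, Ccr9 and Ccr2 on the 9 arrays, with Foxp3-cre, CD4-cre and wild type from left to right, symbols for replicates and lines for group means, all axes with the same span. On Cxcr6 1425832_a_at and Ccr9 1421919_a_at, the square of wild type replicate 2 lies at 8.26 and 4.27, at least 1 log2 unit below the other 2 wild type arrays.

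Some markers of natural killer and innate-like T cells were lower along with Cxcr6 and Ccr9. Of the 14 such markers with a probe set, 13 were below 0 in Foxp3-cre and 4 passed as lower: Xcl1 and Fasl, a chemokine and a death ligand of cytotoxic lymphocytes, Nkg7, a cytotoxic granule protein, and Zbtb16, the PLZF factor of innate-like T cells. Their differences were -1.16, -1.31, -0.58 and -1.36, and with the replicate number as a block 6 of the 14 passed as lower. In CD4-cre 12 were below 0 and Xcl1 passed, at -0.78 (adjusted p = 0.0183 in limma). In each knockout 9 of the 14 had an unadjusted p below 0.05, where 13.7% of all probe sets did in Foxp3-cre and 10.5% in CD4-cre. With array weights 6 passed in Foxp3-cre and 3 in CD4-cre, where 4.81% and 2.86% of all probe sets did. All arrays lay below wild type for 8 in Foxp3-cre and 10 in CD4-cre, where 8.60% and 6.75% of all probe sets did so. Averaged over the 14 genes, the arrays ranged from 6.54 to 7.07 in Foxp3-cre, 6.71 to 7.19 in CD4-cre and 7.46 to 7.56 in wild type. The largest difference in the list was that of Klra7, at -1.47 in Foxp3-cre and -1.38 in CD4-cre, neither called. Ncr1, a marker of natural killer cells, read 5.45, 5.48 and 5.48 in Foxp3-cre, 5.37, 5.18 and 5.52 in CD4-cre, and 5.90, 5.44 and 5.73 in wild type, and log2 arrays give no value of 0. The part of these cells in the receptor results was not tested. Ccr9 is also a gene of thymocytes, whose 5 markers averaged 4.79 to 5.48 in Foxp3-cre, 5.12 to 5.18 in CD4-cre and 4.83 to 4.89 in wild type, with 0 of 5 called in limma against wild type in either knockout (unadjusted p below 0.05 for 1 in Foxp3-cre and 0 in CD4-cre; with array weights, 1 and 0 called). With the replicate number as a block 1 of them, Rag1, passed as higher in Foxp3-cre, at 1.77 (adjusted p = 0.0306 in limma). Of the 5, 2 were above 0 and 3 below in Foxp3-cre, with a median of -0.03. In CD4-cre 5 were above 0 and 0 below, with a median of 0.21.

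CD4-cre was compared with wild type to ask which receptors differed when Sirt1 was targeted in T cells at large. Ccr9 was the receptor that passed, with a 1.68-fold lower signal on its brightest set, and the other 13 probe sets did not pass. That is 1 of 14 probe sets, all lower, where 0.270% of all probe sets passed and 0.150% as lower. The difference of Ccr9 1427419_x_at was -0.75 (SE 0.11, limma adjusted p = 0.0295), and those of its other sets were -0.56 (adjusted p = 0.0797) and -0.55 (adjusted p = 0.556). For Cxcr6 the differences were -0.71 (SE 0.14, adjusted p = 0.0919) and -0.53 (adjusted p = 0.568). The median of the 14 was -0.30, beside 0.01 for all probe sets, but Ccr9, Ccr2 and Cxcr6 enter it with several sets each. By the brightest set of each of the 9 genes the median was 0.21, with 5 genes above 0 and 4 below, so the receptors did not share a direction.

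The Ccr9 call was near its threshold. It stood in 3 of the 9 fits that leave out an array, namely those without wild type replicate 2, Foxp3-cre replicate 1 or Foxp3-cre replicate 3 (adjusted p = 0.0374, 0.0244 and 0.0408 in limma). It did not stand without wild type replicate 1 or 3 (adjusted p = 0.0669 and 0.102), CD4-cre replicate 1, 2 or 3 (0.114, 0.158 and 0.144) or Foxp3-cre replicate 2 (0.0777), while the difference stayed between -0.80 and -0.68. Without wild type replicate 2, 6 of 14 probe sets passed as lower in CD4-cre, the 3 of Ccr9, the 2 of Cxcr6 and Ccr2 1421186_at, where 1.01% of all probe sets passed. Cxcr6 1422812_at was then at -0.81 (adjusted p = 0.0328). In Foxp3-cre the same omission gave 6 as well, the 3 of Ccr9, the 2 of Cxcr6 and Ccr2 1421188_at, where 1.91% of all probe sets passed. With array weights, which lower the part of that array, 6 of 14 passed in Foxp3-cre, where 4.81% of all probe sets did, and 7 in CD4-cre, where 2.86% did. The 2 comparisons share the wild type arrays.

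**Figure D3:**
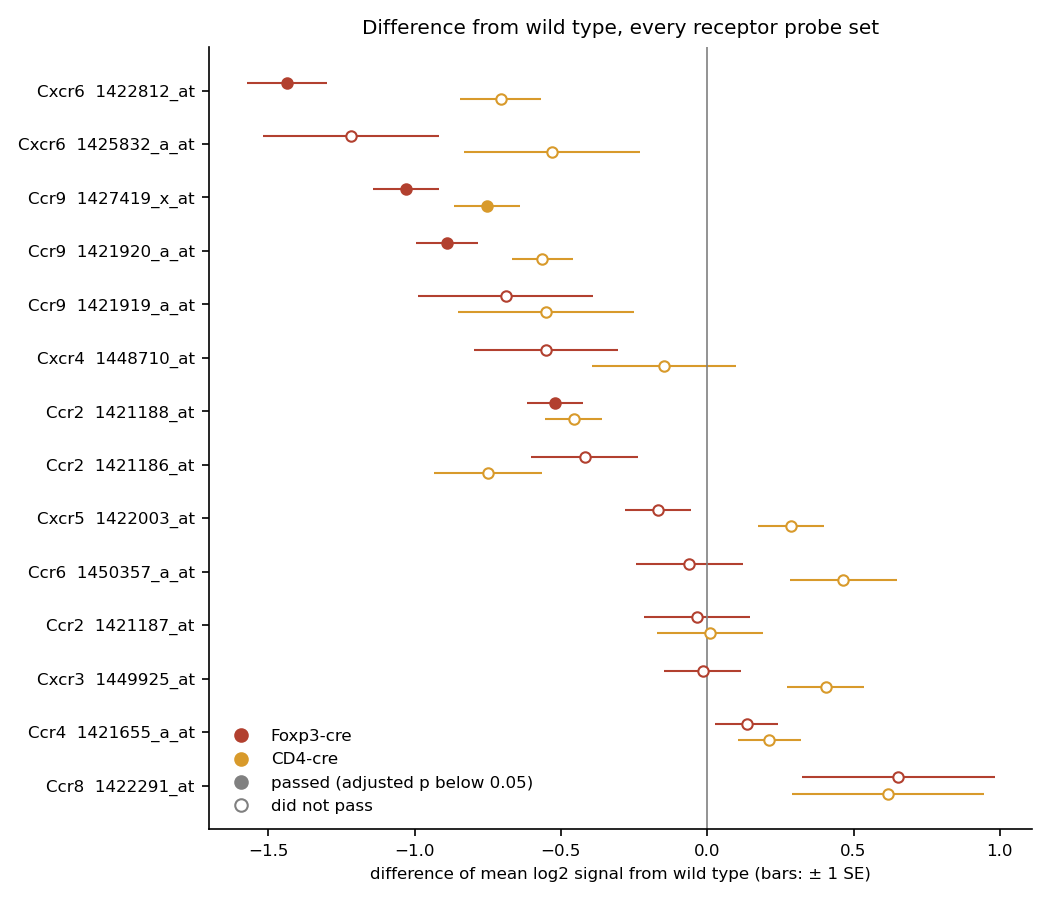
Difference of mean log2 signal from wild type for each of the 14 probe sets, Foxp3-cre in red above CD4-cre in yellow, bars ± 1 SE, filled where the adjusted p in limma was below 0.05. The filled points are Cxcr6 1422812_at at -1.44, 2 sets of Ccr9 at -1.03 and -0.89 and Ccr2 1421188_at at -0.52 in Foxp3-cre, and Ccr9 1427419_x_at at -0.75 in CD4-cre.

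The knockouts were also set against each other, which tests whether their differences from the shared wild type arrays differ. The count of the 14 probe sets that passed was 0 in limma, where 0.00442% of all probe sets passed, a single one. Among the 14, 7 had an unadjusted p below 0.05, where 9.08% of all probe sets did, and 2 passed with array weights (Cxcr6 1422812_at and Ccr9 1421920_a_at, both lower), where 1.21% of all probe sets did. Without wild type replicate 2, 0 passed, where 0.190% of all probe sets did. For Cxcr6 the difference of Foxp3-cre from CD4-cre was -0.73 on 1422812_at (SE 0.14, adjusted p = 0.189) and -0.69 on 1425832_a_at (adjusted p = 0.540), with no overlap of the 3 and 3 arrays on either set. For Ccr9 1427419_x_at it was -0.28 (SE 0.11, adjusted p = 0.509). So a lower Cxcr6 signal in Foxp3-cre than in CD4-cre was seen on every array but did not pass over all probe sets. All 3 Foxp3-cre arrays lay below all 3 CD4-cre arrays for 6 of the 14 probe sets and above them for 0, where 13.9% of all probe sets lay below and 8.04% above.

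Ccr2 encodes the receptor of CCL2 and related chemokines that call monocytes and activated T cells into inflamed tissue. Its brightest set, 1421186_at, read 7.31, 7.51 and 7.60 in Foxp3-cre, 6.97, 6.96 and 7.50 in CD4-cre, and 8.02, 7.54 and 8.12 in wild type. Here the CD4-cre mean was the lowest of the 3 and its arrays did not overlap wild type. The difference was -0.42 in Foxp3-cre (SE 0.18, adjusted p = 0.354 in limma) and -0.75 in CD4-cre (adjusted p = 0.178), or -0.92 in CD4-cre without wild type replicate 2 (adjusted p = 0.0445). The 3 sets of this gene disagreed. On 1421187_at the differences were -0.03 in Foxp3-cre and 0.01 in CD4-cre, neither called. On the dim set 1421188_at, below the 40th percentile of probe set means, the values were 4.10, 4.15 and 4.40 in Foxp3-cre, 4.26, 4.31 and 4.26 in CD4-cre, and 4.80, 4.66 and 4.74 in wild type. Both knockouts lay below wild type there, with -0.52 in Foxp3-cre (SE 0.10, adjusted p = 0.0394 in limma) and -0.46 in CD4-cre (adjusted p = 0.112). The arrays of this set lay at percentiles 35.1 to 43.8, and 17 genes of non-lymphoid tissues reached up to 46.8, so whether Ccr2 was detected by it cannot be told. The Foxp3-cre call held without wild type replicate 2 or Foxp3-cre replicate 3 (adjusted p = 0.0280 and 0.0479) and not without any of the other 7 arrays (0.0693 to 0.121). Monocytes carry Ccr2, and the 10 monocyte and macrophage markers averaged 5.82, 6.57 and 7.29 in Foxp3-cre, 5.31, 5.17 and 6.21 in CD4-cre, and 5.38, 5.44 and 5.81 in wild type, with 0 of 10 called in limma (unadjusted p below 0.05 for 6 in Foxp3-cre and 1 in CD4-cre; with array weights, 3 and 0 called; with the replicate number as a block, 4 called as higher in Foxp3-cre). In each group the array with the highest marker average, replicate 3, also had the highest Ccr2 1421186_at signal. On 1421187_at replicate 3 was highest in CD4-cre and wild type only, and on 1421188_at in Foxp3-cre only. Between the groups, the mean marker average was highest in Foxp3-cre, at 6.56 against 5.56 in CD4-cre and 5.55 in wild type. The mean of 1421186_at was highest in wild type, at 7.89 against 7.47 in Foxp3-cre and 7.15 in CD4-cre. The part of these cells in the Ccr2 values was not tested.

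Cxcr3, the receptor of the interferon-induced chemokines CXCL9, CXCL10 and CXCL11, read 9.78, 9.90 and 9.94 in Foxp3-cre, 10.23, 10.17 and 10.47 in CD4-cre, and 10.13, 9.66 and 9.88 in wild type (probe set 1449925_at). CD4-cre lay above both other groups, by 0.40 over wild type (SE 0.13, adjusted p = 0.297 in limma), and Foxp3-cre stood at -0.015 (adjusted p = 0.968). Ccr6, the receptor of CCL20, had 7.81, 7.25 and 6.97 in Foxp3-cre, 7.81, 7.92 and 7.86 in CD4-cre, and 7.24, 7.55 and 7.41 in wild type (1450357_a_at). Its difference in CD4-cre was 0.46 (SE 0.18, adjusted p = 0.413), with the groups apart, and in Foxp3-cre -0.06 (adjusted p = 0.902), with the Foxp3-cre arrays spread around wild type. Cxcr5, the receptor of CXCL13 that brings cells to the B cell follicle, read 6.67, 7.04 and 7.02 in Foxp3-cre, 7.35, 7.28 and 7.47 in CD4-cre, and 7.15, 7.06 and 7.03 in wild type (1422003_at). Its difference was -0.17 for Foxp3-cre (adjusted p = 0.541) and 0.29 for CD4-cre (adjusted p = 0.413). These 3 receptors were thus the ones whose CD4-cre arrays all lay above wild type. Over the 14 probe sets, CD4-cre lay wholly above wild type for 3 and wholly below for 5, where 8.51% of all probe sets lay above and 6.75% below. For Foxp3-cre the counts were 1 above and 5 below, where 7.30% and 8.60% of all probe sets did so. By the brightest set of each gene the counts were 3 above and 3 below in CD4-cre, and 1 above and 2 below in Foxp3-cre.

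Cxcr4, the receptor of CXCL12 that holds lymphocytes in bone marrow and lymphoid tissue, read 9.13, 10.10 and 10.24 in Foxp3-cre, 10.30, 10.11 and 10.27 in CD4-cre, and 10.34, 10.22 and 10.56 in wild type (1448710_at). The Foxp3-cre difference of -0.55 (SE 0.25, adjusted p = 0.362 in limma) was -0.20 without Foxp3-cre replicate 1 (adjusted p = 0.628), and CD4-cre stood at -0.15 (adjusted p = 0.852). That replicate was also the lowest of its group for Cxcr5 and for the 9 B cell markers, which averaged 5.54, 6.56 and 6.69 in Foxp3-cre, 6.14, 5.97 and 6.05 in CD4-cre, and 5.69, 6.12 and 5.49 in wild type. B cells carry Cxcr4, Cxcr5 and Ccr6. Of the 9 markers 0 were called in limma (unadjusted p below 0.05 for 3 in Foxp3-cre and 2 in CD4-cre; with array weights, 3 and 0 called), and their part in the receptor values was not tested. For Ccr6 that replicate was the highest of its group.

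Ccr8, the receptor of CCL1 and CCL8 that is carried by activated Tregs, read 5.35, 5.42 and 5.58 in Foxp3-cre, 5.59, 5.20 and 5.46 in CD4-cre, and 5.35, 3.83 and 5.22 in wild type (1422291_at). The single wild type array at 3.83, replicate 2, set the difference: it was 0.65 in Foxp3-cre and 0.62 in CD4-cre with all arrays (adjusted p = 0.417 and 0.549 in limma), and 0.17 and 0.13 without that array (adjusted p = 0.561 and 0.626). The arrays of this set lay at percentiles 28.9 to 51.9, and the highest of the 17 genes of non-lymphoid tissues averaged 46.8. Whether Ccr8 was detected on the lower arrays cannot be told. Ccr4, the receptor of CCL17 and CCL22, was measured by a dim set, 1421655_a_at, at 4.54, 4.41 and 4.40 in Foxp3-cre, 4.51, 4.40 and 4.66 in CD4-cre, and 4.40, 4.13 and 4.41 in wild type. The groups overlapped, at 0.14 in Foxp3-cre and 0.21 in CD4-cre (adjusted p = 0.602 and 0.529). On its arrays this set lay between the 33.5th and 41.4th percentile, and the 17 genes of non-lymphoid tissues that were read as a gauge reached up to the 46.8th, so whether Ccr4 was detected cannot be told from this set. Of the 14 probe sets, 12 had means that reached the 40th percentile of the whole table, and the 2 below were those of Ccr4 and Ccr2 1421188_at.

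The ligands of the 9 receptors were read from the same Tregs, although most are made by stromal, epithelial or myeloid cells. Of 15 ligand genes, Ccl1, a ligand of CCR8 secreted by activated T cells, passed as higher in Foxp3-cre, and 0 passed in CD4-cre (1 with an unadjusted p below 0.05, 0 with array weights). Ccl1 read 6.36, 6.22 and 6.26 in Foxp3-cre, 5.97, 5.77 and 5.73 in CD4-cre, and 5.78, 5.55 and 5.19 in wild type. All Foxp3-cre arrays lay above the others, with a difference from wild type of 0.77 (adjusted p = 0.0376 in limma), against 0.31 in CD4-cre (adjusted p = 0.478). The largest CD4-cre difference was that of Cxcl10, a ligand of CXCR3, at 0.68 (adjusted p = 0.267). Cxcl16, the ligand of CXCR6, stood at 0.11 in Foxp3-cre and 0.07 in CD4-cre, and Ccl25, the ligand of CCR9, at -0.38 and -0.23, none of them called. Averaged over the 9 arrays, the 15 ligand genes lay at a median percentile of 29.7, and the 17 genes of non-lymphoid tissues reached up to 46.8. For a ligand at such a level the lack of a call does not show that it was detected and unchanged.

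Among 13 other chemokine receptors with a probe set, 0 passed in limma in either knockout against wild type, with an unadjusted p below 0.05 for 2 in Foxp3-cre and 2 in CD4-cre and 0 called with array weights. Ccr7, which brings T cells to lymph nodes, stood at 0.06 in Foxp3-cre and -0.04 in CD4-cre. The largest differences were Ccr1 at 0.50 and Ackr4, a scavenging receptor, at -0.34 in Foxp3-cre, and Ccr1 at -0.43 and Cxcr2 at -0.38 in CD4-cre. Their median was 0.05 in Foxp3-cre and 0.04 in CD4-cre by the brightest sets.

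In the signalling chain below the receptors, 1 of 17 genes passed, as higher in both knockouts. This was Pik3cg, the catalytic subunit of phosphoinositide 3-kinase gamma, with 7.67, 7.58 and 7.45 in Foxp3-cre, 7.67, 7.55 and 7.46 in CD4-cre, and 7.04, 6.86 and 6.83 in wild type on its brighter set. Neither knockout overlapped wild type, with differences of 0.66 for Foxp3-cre and 0.65 for CD4-cre (adjusted p = 0.0200 and 0.0341 in limma). Its other set, 1422708_at, read -0.07 and -0.61 instead, neither called, so the sets of this gene disagreed. The G protein subunit Gnai3 had the next largest difference, 0.42 in Foxp3-cre and 0.37 in CD4-cre, without passing.

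Of 12 genes that end the signal (receptor kinases, arrestins and RGS proteins), 0 passed in limma by their brightest set (unadjusted p below 0.05 for 4 in Foxp3-cre and 1 in CD4-cre; with array weights, 2 and 1 called). Without wild type replicate 2, 1 of them passed in Foxp3-cre and 0 in CD4-cre. Rgs18 stood at 1.04 in Foxp3-cre and 0.47 in CD4-cre, and Rgs2 at -0.33 and -0.50. One of the 4 sets of Rgs3, 1449516_a_at, passed as lower in Foxp3-cre, at -0.78 (adjusted p = 0.00656), with 7.33, 7.06 and 7.11 in Foxp3-cre, 7.70, 7.72 and 7.64 in CD4-cre, and 7.91, 7.96 and 7.99 in wild type. The other sets of Rgs3, its brightest among them, were not called.

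Lineage transcription factors set much of a T cell's receptor programme. Of 14 with a probe set, 3 passed as lower in Foxp3-cre and 0 in CD4-cre in limma, where 4 had an unadjusted p below 0.05 and 2 passed with array weights. Besides Foxp3 these were Tbx21, which encodes T-bet and is known to drive Cxcr3 in effector T cells, and Zbtb16. Tbx21 read 7.69, 7.56 and 7.52 in Foxp3-cre, 8.02, 7.80 and 8.24 in CD4-cre, and 8.66, 9.02 and 8.56 in wild type. Its difference was -1.16 for Foxp3-cre and -0.73 for CD4-cre (adjusted p = 0.00785 and 0.0937 in limma), whereas that of Cxcr3 was -0.015 and 0.40. Zbtb16 stood at -1.36 for Foxp3-cre and -0.48 for CD4-cre (adjusted p = 0.0260 and 0.494). In CD4-cre the 2 with the largest differences were Tbx21 and Ikzf2, the Treg factor Helios, at 0.57.

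Receptors of other classes that also direct homing (selectins, integrins and sphingosine phosphate receptors) included 1 of 13 called, Itgb1, the beta 1 integrin chain. It read 8.57, 8.46 and 8.51 in Foxp3-cre, 7.76, 7.61 and 7.74 in CD4-cre, and 7.88, 7.41 and 7.78 in wild type. Foxp3-cre was higher by 0.83 over wild type (adjusted p = 0.0173 in limma), and CD4-cre stood at 0.01. Without wild type replicate 2, 2 of the 13 genes passed in Foxp3-cre, and between the knockouts 1 did, in place of 0. In CD4-cre 0 passed (3 with an unadjusted p below 0.05, 1 with array weights). There Itgae, the gene of the integrin chain CD103, stood at 0.78 (adjusted p = 0.126) and Itga4 at -0.40.

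The place of Ccr9 and Cxcr6 on chromosome 9 was used to see whether their neighbours moved as well. In the RefSeq order of protein-coding genes (GRCm38.p6), Fyco1 lies between the 2 receptors, Lztfl1 comes before Ccr9, and Xcr1, Ccr1, Ccr1l1, Ccr3 and Ccr2 follow Cxcr6. Fyco1, an adaptor of autophagosome transport, was at -0.20 in Foxp3-cre (SE 0.11, adjusted p = 0.479 in limma) and 0.18 in CD4-cre (adjusted p = 0.603). Lztfl1, a regulator of ciliary traffic, was at 0.05 and 0.36, and Xcr1 at 0.004 and 0.04. Of the 13 genes with a probe set, Ccr9 and Cxcr6 were the ones called by their brightest set against wild type, both in Foxp3-cre and Ccr9 in CD4-cre. In a wider list of 15 neighbours that leaves out the receptors followed here, 0 passed in limma (unadjusted p below 0.05 for 1 in Foxp3-cre and 2 in CD4-cre; with array weights, 1 and 1 called). The largest differences in it were those of Ltf, the gene of the neutrophil granule protein lactoferrin, at 2.35 in Foxp3-cre and 0.83 in CD4-cre, and of Ccr1. With the replicate number as a block Ltf passed as higher in Foxp3-cre (adjusted p = 0.00108 in limma, against 0.0643 without it). The median of the mean signals of these 15 genes was 4.06, so many of them were dim.

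**Figure D4:**
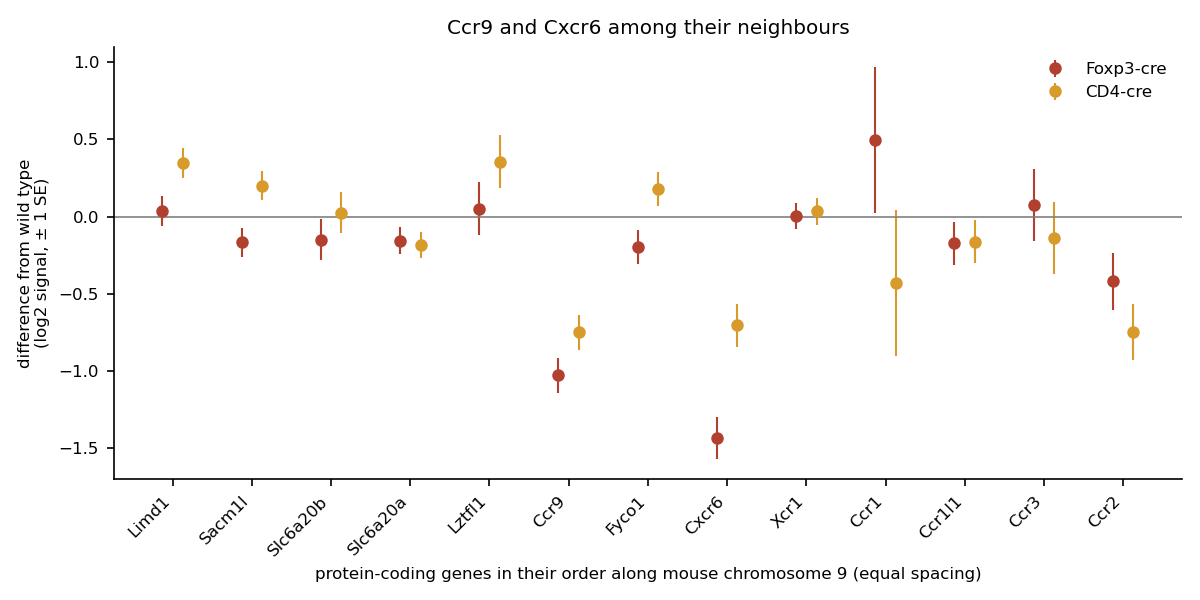
Difference of mean log2 signal from wild type (brightest probe set, ± 1 SE) for protein-coding genes in their order along chromosome 9, drawn at equal spacing, Foxp3-cre left of CD4-cre for each gene. Ccr9 (-1.03 and -0.75) and Cxcr6 (-1.44 and -0.71) lie low, while Fyco1 between them lies at -0.20 and 0.18.

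Genes whose signals ran most like these 2 receptors over the 9 arrays were found by the root mean square distance between profiles centred on their own mean, among 12451 probe sets. For Cxcr6 the nearest were Xcl1 (distance 0.18), Fasl (0.20), the cytokine genes Ifng (0.21) and Il4 (0.22), and Tubb2a, a tubulin (0.23). For Ccr9 they were Dnase1l2, a DNase (0.12), Pink1, a kinase of mitochondrial quality control (0.13), Ifng (0.14), Il6st, the shared receptor chain of the interleukin-6 family (0.15), and Adh1, an alcohol dehydrogenase (0.16). Ifng, the gene of interferon gamma, was near both, with 7.51, 7.27 and 7.40 in Foxp3-cre, 7.84, 7.63 and 7.80 in CD4-cre, and 8.65, 8.54 and 8.49 in wild type. These genes were picked for their likeness to receptors that differ between the groups, so that they differ too is no separate result. All 9 points of a profile share the same arrays.

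**Figure D5:**
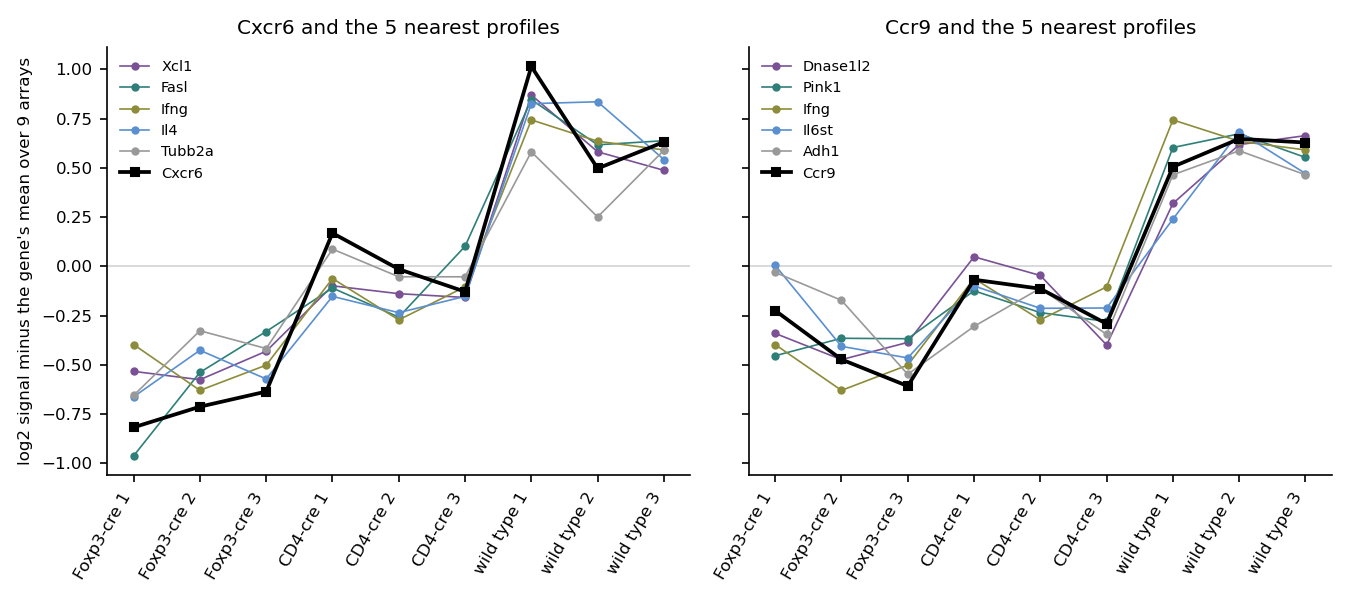
Log2 signals on the 9 arrays, each gene centred on its own mean, for Cxcr6 (left) and Ccr9 (right) in black with the 5 nearest profiles in colour, arrays ordered Foxp3-cre, CD4-cre and wild type. Cxcr6 and its nearest profiles lie lowest in Foxp3-cre and highest in wild type, while for Ccr9 the knockout groups lie closer together, at means of 7.24 in Foxp3-cre and 7.52 in CD4-cre.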

How the data were processed

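RNA of 9 samples was measured on 9 arrays, 1 each. The authors deposited log2 signals that they made with RMA, per the submitters' processing notes. RMA removes background, brings the arrays to a shared distribution and fits 1 value for each probe set; it compresses differences of dim sets and takes out changes common to all genes. The sources used here do not name its version. With 3 arrays a group, their number limits the precision (median SE of a difference 0.12). Values span 1.57 to 14.06, array medians 5.37 to 5.45, and 0 pairs of arrays are identical.

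The table holds 22690 probe sets, and 64 controls were left out. By the platform annotation 20380 carry 1 symbol, 691 several and 1555 none; 20351 matched a RefSeq table (GRCm38.p6) by gene ID, with 0 symbols changed. All 22626 were tested without a filter on low values, with limma 3.58.1 in R 4.3.3 (lmFit, eBayes, no trend, not robust), in 1 two-sided fit of all 9 arrays (6 residual and 3.84 prior degrees of freedom) with Benjamini-Hochberg adjustment over all probe sets. Same-numbered Foxp3-cre and wild type arrays deviated together (correlations of 0.18 to 0.21 in 3 of 3 pairs, -0.25 to -0.05 for other numbers). The labels give the numbers without a meaning, and the main fit used no pairing. In the alternative with the replicate number as a block, all 9 arrays were blocked. Counts of the lists from that alternative are given for Foxp3-cre against wild type only. The fit was checked on simulated data with 200 changed probe sets. Exact permutation tests were not run, since 3 arrays against 3 give p = 0.1 at best. A gene with several sets is represented by its brightest, the one with the highest mean over 9 arrays. Alternatives were a filter at the 40th percentile (4.516), 1 probe set a gene (7436 genes at or above 4.979), eBayes with trend, array weights, array medians centred, the replicate number as a block, 2 groups in the fit, and leaving out each array.

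The receptors, companion lists and markers were chosen with earlier results of these data known. The text names every probe set of the 9 receptors, up to 4 called genes of each list or the 2 of largest difference where none was called, the 5 profiles most like the 2 receptors of largest called Foxp3-cre difference, Sirt1 and Foxp3. Genes named beside these (ligands and neighbours of Cxcr6 and Ccr9, Ccr7, Klra7, Ncr1, Rag1, Gnai3) were added after their values were seen. Promoter windows are RefSeq's, drawn with Python 3.11.15 from a table of GRCm38.p6.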

Additional observations from a re-analysis of the deposited data

Results flagged for a closer look

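The direct comparison of the knockouts called a single probe set, that of Foxp3. It read 2.67, 3.38 and 2.83 in Foxp3-cre, against 9.68, 9.69 and 9.62 in CD4-cre, a difference of -6.70 on the log2 scale, the one result in which the test of the difference between the knockouts passed in limma. The Foxp3-cre values lie below the average of genes of non-lymphoid tissues on the same arrays (3.37 to 3.45), so the difference is not a measure of how much Foxp3 RNA differed, and the sources used here do not place the probes relative to the Foxp3-cre allele. No chemokine receptor met that test, and the part of Foxp3 in the receptor values was not tested.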

How the results depend on the processing

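Of 648 recomputed differences of the 14 probe sets, 598 kept direction and side of the threshold, 17 passed anew, 16 no longer passed and 17 changed sign. The calls of Cxcr6 1422812_at and Ccr9 1427419_x_at in Foxp3-cre held under all 16 alternatives, with differences from -1.54 to -1.29 and from -1.13 to -0.94 (adjusted p up to 0.0258 and 0.0428 in limma), and that of Ccr9 1421920_a_at under 14 of 15, all but the fit of 2 groups (adjusted p = 0.0673). Ccr9 1427419_x_at in CD4-cre held under 9 of 16 and Ccr2 1421188_at in Foxp3-cre under 6 of 14. With array weights, which gave wild type replicate 2 a weight of 0.12, 1088 probe sets passed in Foxp3-cre, 647 in CD4-cre and 274 between the knockouts, in place of 252, 61 and 1, and 6, 7 and 2 of the 14. With only the compared groups in the fit, 26 passed in Foxp3-cre and 15 in CD4-cre, and 2 and 0 of the 14, where fewer arrays estimate the spread. With 1 probe set a gene, 2 receptors passed in Foxp3-cre, since their other sets are not in that fit. Leaving out each array gave 65 to 432 in Foxp3-cre, 12 to 229 in CD4-cre and 1 to 43 between the knockouts, and 3 to 6, 0 to 6 and 0 of the 14; the highest counts came without wild type replicate 2. The replicate block gave 434 in Foxp3-cre, 87 in CD4-cre and 91 between the knockouts and changed no receptor's call; where it changed a list's count in Foxp3-cre the value stands beside it. Same-numbered deviations of CD4-cre and wild type correlated at 0.03, -0.04 and 0.14, and wild type replicate 1 lay nearer to CD4-cre replicate 2 (0.10) than to CD4-cre replicate 1 (0.03). Those of CD4-cre and Foxp3-cre correlated at 0.14, 0.02 and 0.29, against -0.24 to 0.14 for other numbers. Whether the arrays of these comparisons were paired cannot be told. The sign changes were of values near 0, none called, and their cause was not tested. Ccr2 1421187_at in CD4-cre was -0.20 with array weights, -0.017 with medians centred, and -0.16 to 0.13 when an array was left out; in Foxp3-cre it was -0.21 to 0.083 when an array was left out; between the knockouts it was 0.034 with array weights and -0.15 to 0.12 when an array was left out. On leaving out an array, Ccr6 and Cxcr3 in Foxp3-cre ranged from -0.29 to 0.13 and from -0.13 to 0.11, and Ccr8 and Ccr9 1421919_a_at between the knockouts from -0.072 to 0.12 and from -0.22 to 0.030. Dim sets, such as that of Ccr4, limit what can be seen of their genes.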

Other observations

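Other cells that a separation by CD4 and CD25 could hold were read from marker lists, and those not given beside a receptor were as follows. Of 12 neutrophil markers 5 passed as higher in Foxp3-cre (Elane, Ngp, Lcn2 and Mpo among them), 9 did so with the replicate number as a block and 2 without wild type replicate 2, while 0 passed in CD4-cre in limma (unadjusted p below 0.05 for 5, and 2 called with array weights). Their average ranged from 8.82 to 9.88 in Foxp3-cre, 7.88 to 8.81 in CD4-cre and 7.59 to 8.54 in wild type. Of 5 CD8 T cell markers, Gzmk passed as higher and Ctsw as lower in Foxp3-cre, at 1.34 and -0.80, and 0 passed in CD4-cre (2 with an unadjusted p below 0.05, 0 with array weights). Of 12 Treg markers Foxp3 passed in Foxp3-cre and 0 in CD4-cre (4 with an unadjusted p below 0.05, 1 with array weights). None of 7 plasma cell markers passed in either knockout in limma (unadjusted p below 0.05 for 3 in each; with array weights, 2 in Foxp3-cre and 1 in CD4-cre; with the replicate number as a block, 1 as lower in Foxp3-cre). For the 7 dendritic cell and 7 T cell markers and the 17 genes of non-lymphoid tissues the counts were 0 in both, and those at an unadjusted p below 0.05 were 0, 0 and 1 in Foxp3-cre and 0, 1 and 0 in CD4-cre, with 0 called with array weights.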
